A study of Homo sapiens with 6 samples.

Results

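Long noncoding RNAs (lncRNAs) are transcripts that act as RNA rather than through a protein, and several carry names given for their abundance in tumours. Levels of 10 such RNAs known from colorectal cancer were looked up in DLD-1 subpopulations: UCA1, MIR31HG, H19, MALAT1, NEAT1, PVT1, CCAT1, HOTAIR, GAS5 and TUG1. A usable row was taken to be a row of the deposited array table with intact decimal points and a single gene symbol, and 6 of the 10 had one, each exactly 1, out of 22376 genes measured in this way. These were UCA1, MIR31HG, MALAT1, CCAT1, HOTAIR and TUG1. H19, NEAT1, PVT1 and GAS5 appeared only in rows that carry further symbols, so no value is assigned to them. The RNAs were chosen by name with their measured differences between the subpopulations already known, so they count as selected on those differences and their levels and differences are given as a description.

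The study profiled the human colorectal adenocarcinoma cell line DLD-1 on Affymetrix microarrays. There were 3 arrays of subclones labelled Δα-Cat and 3 arrays of subclones labelled α-Cat. Cells of both groups were untreated and had spent 96 h in a 3D gel of type I collagen at 1 mg/ml. The labels neither spell out the names, which are read here as referring to α-catenin, nor say whether a group is 1 clone or whether its arrays came from separate cultures, so the p-values cover array-to-array spread only, some or all of which may be technical.

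The label was checked on CTNNA1, the gene of αE-catenin, which links cadherin complexes to actin. Its log2 level was 6.55, 6.52 and 6.41 in Δα-Cat arrays, against 7.79, 7.68 and 7.71 in α-Cat arrays. Median levels of the arrays lay between 4.02 and 4.07. All 12 colorectal epithelial markers were measured, and 0 of them lay, in both groups, below a rough background, the 95th percentile of the mean levels of 364 olfactory receptor genes, which was 4.43 on the log2 scale. By limma's test across all rows, 1 of these 12 rose, 0 fell and 11 did not pass, where 0.342% of all rows were called. An unadjusted p under 0.05 was found for 7 of the 12, where 9.83% of all rows had one. The groups did not overlap for 8, where that held for 15.4% of all rows. Among 17023 genes that RefSeq types as protein-coding, 2563 had such a p, and the groups did not overlap for 4155. The marker that rose was KRT20, a keratin of differentiated intestinal epithelium, named after its values were seen. It read 8.70, 9.25 and 9.50 in Δα-Cat arrays, against 4.35, 4.52 and 4.34 in α-Cat arrays, a difference of 4.75 (SE 0.19, adjusted p = 0.000832), and its α-Cat mean lay just below that background. What part this has in the differences of the lncRNAs was not tested. Among markers of cells the culture should lack, 4 of 8 for fibroblasts, 1 of 6 for leukocytes and 2 of 5 for endothelium lay below the same background in both groups, and 0 of them differed by the test across all rows. At an unadjusted p under 0.05 that was 0 of 8, 2 of 6 and 0 of 5. The other markers of such cells were not below this background in both groups. COL1A1 was among them, with means of 6.15 in Δα-Cat and 6.16 in α-Cat. A level above this background therefore does not by itself show that a gene is expressed.

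UCA1 is a cytoplasmic RNA first described in bladder cancer. CCAT1 is transcribed upstream of the MYC gene and is abundant in colorectal tumours. MALAT1 is an abundant nuclear RNA of splicing speckles, HOTAIR is transcribed from the HOXC cluster, TUG1 is widely expressed, and MIR31HG is the host transcript of the microRNA miR-31, which is raised in a share of colorectal cancers.

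The start regions of the 2 RNAs that were higher in all Δα-Cat arrays than in any α-Cat array are shown first, because they are the sequences next to which those transcripts begin. They run from 250 bases before to 50 bases after the start, come from RefSeq on build GRCh38.p14, and are written 5′ to 3′ on the strand of the gene. Capitals mark the letters CACGTG, the E-box bound by MYC and related factors.
MIR31HG, chr9:21559749-21560048, minus strand: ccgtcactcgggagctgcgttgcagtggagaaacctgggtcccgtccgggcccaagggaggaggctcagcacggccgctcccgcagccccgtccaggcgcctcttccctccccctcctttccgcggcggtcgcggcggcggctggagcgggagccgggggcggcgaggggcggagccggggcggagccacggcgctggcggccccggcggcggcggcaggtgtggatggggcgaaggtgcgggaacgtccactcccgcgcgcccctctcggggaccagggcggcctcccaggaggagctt
TUG1, chr22:30969015-30969314, plus strand: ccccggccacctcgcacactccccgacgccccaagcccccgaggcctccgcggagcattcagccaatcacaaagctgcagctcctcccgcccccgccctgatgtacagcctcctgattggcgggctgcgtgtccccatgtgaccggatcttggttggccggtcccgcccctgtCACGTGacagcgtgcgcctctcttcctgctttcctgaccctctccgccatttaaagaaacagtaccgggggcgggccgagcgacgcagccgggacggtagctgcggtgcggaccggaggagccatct

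Both windows were rich in G and C. The share of G and C was 77.7% for MIR31HG and 67.7% for TUG1, with 39 and 28 CpG dinucleotides, where the median window of the table had 58.7% and 14. Of the 6 RNAs, 3 had windows in the table: MIR31HG, TUG1 and MALAT1, the last with 2 windows. Each was searched on both strands for the E-box CACGTG, the hypoxia response core ACGTG and the TEAD motif CATTCC. The AP-1 motif TGANTCA, the arm TTGGCA of an NFI site, and the TCF/LEF motif in the forms CTTTGAT and, with another last letter, CTTTGAA were searched likewise. The TUG1 window held 1 CACGTG, starting at base 174, and its 2 matches to ACGTG lie inside that motif. CACGTG occurs in 7.26% of all 35116 windows, and ACGTG in 21.4%. None of the searched motifs was found in the MIR31HG window or in either MALAT1 window, and the shares of all windows that hold the others were 7.71% for TGANTCA, 14% for CATTCC, 2.62% for CTTTGAT, 4.43% for CTTTGAA and 12.5% for TTGGCA. A match says only that the letters occur there.

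MIR31HG is shown also for the small RNA it carries. The miR-31 hairpin lies at chr9:21512115-21512185 on the minus strand (RefSeq, GRCh38.p14), with the mature 5p arm in capitals in the first line and its seed, bases 2 to 8, in capitals in the second.
MIR31 hairpin: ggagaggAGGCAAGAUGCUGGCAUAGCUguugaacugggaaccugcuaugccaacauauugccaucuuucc
hsa-miR-31-5p: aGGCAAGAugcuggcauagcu

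UCA1, on chromosome 19, was the RNA with the widest separation in level between the groups. Its log2 level was 8.37, 7.82 and 7.68 in Δα-Cat replicates 1, 2 and 3, against 9.69, 10.03 and 9.33 in α-Cat replicates 1, 2 and 3. The groups did not overlap, and the gap of 0.97 between them was wider than the range of either, 0.69 in Δα-Cat and 0.70 in α-Cat. The means were 7.96 ± 0.36 in Δα-Cat and 9.68 ± 0.35 in α-Cat (SD, n = 3 each). UCA1 was thus 3.31-fold lower in Δα-Cat, a difference of -1.73 (SE 0.22) on the log2 scale. Replicate 1 was the Δα-Cat array closest to the α-Cat arrays. Here as elsewhere in bulk RNA, fewer cells that make a transcript and less of it per cell cannot be told apart.

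MIR31HG, on chromosome 9, went the other way. It read 5.10, 5.25 and 5.05 in Δα-Cat arrays, against 3.93, 4.10 and 4.11 in α-Cat arrays. All 3 Δα-Cat arrays were higher, with a gap of 0.94 between the groups and ranges of 0.20 in Δα-Cat and 0.18 in α-Cat. Its mean of 5.13 ± 0.10 in Δα-Cat and 4.05 ± 0.10 in α-Cat (SD, n = 3 each) gives a 2.12-fold higher level, a log2 difference of 1.09 (SE 0.08). The α-Cat mean lay below the olfactory receptor percentile, so on that side the level was not shown to exceed background and the ratio is that of the deposited values. The Δα-Cat mean lay above that percentile, as did some markers of cells the culture should lack, so this does not by itself show expression.

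CCAT1, on chromosome 8, was lower in Δα-Cat by a smaller amount. Its level was 6.38, 6.44 and 6.40 in Δα-Cat arrays, against 6.98, 6.81 and 6.82 in α-Cat arrays. The groups did not overlap, and the Δα-Cat arrays lay within 0.06 of each other. The difference was -0.46 (SE 0.06) on the log2 scale, or 1.38-fold.

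TUG1, on chromosome 22, was higher in every Δα-Cat array than in any α-Cat array, at 8.29, 8.40 and 8.34 in Δα-Cat and 8.05, 7.80 and 8.07 in α-Cat. The difference was 0.37 (SE 0.09), or 1.29-fold, and the gap between the groups, 0.22, was narrower than the range of 0.27 within α-Cat. RefSeq now lists TUG1 with protein products as well, so its array value is of a locus with both kinds of transcript.

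MALAT1 and HOTAIR showed no separation. MALAT1 read 8.44, 9.14 and 9.26 in Δα-Cat arrays, against 9.10, 8.93 and 9.52 in α-Cat arrays. The groups overlapped, and the difference of -0.23 (SE 0.24) was smaller than the range within either group, 0.82 in Δα-Cat and 0.59 in α-Cat. Without Δα-Cat replicate 1, the lowest array, the difference was 0.022, and without α-Cat replicate 3 it was -0.064. HOTAIR read 5.54, 5.44 and 5.63 in Δα-Cat arrays and 5.57, 5.58 and 5.54 in α-Cat arrays, a difference of -0.03 (SE 0.06), which became 0.023 without Δα-Cat replicate 2. For both, the spread between arrays of a group was larger than the difference.

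**Figure D1:**
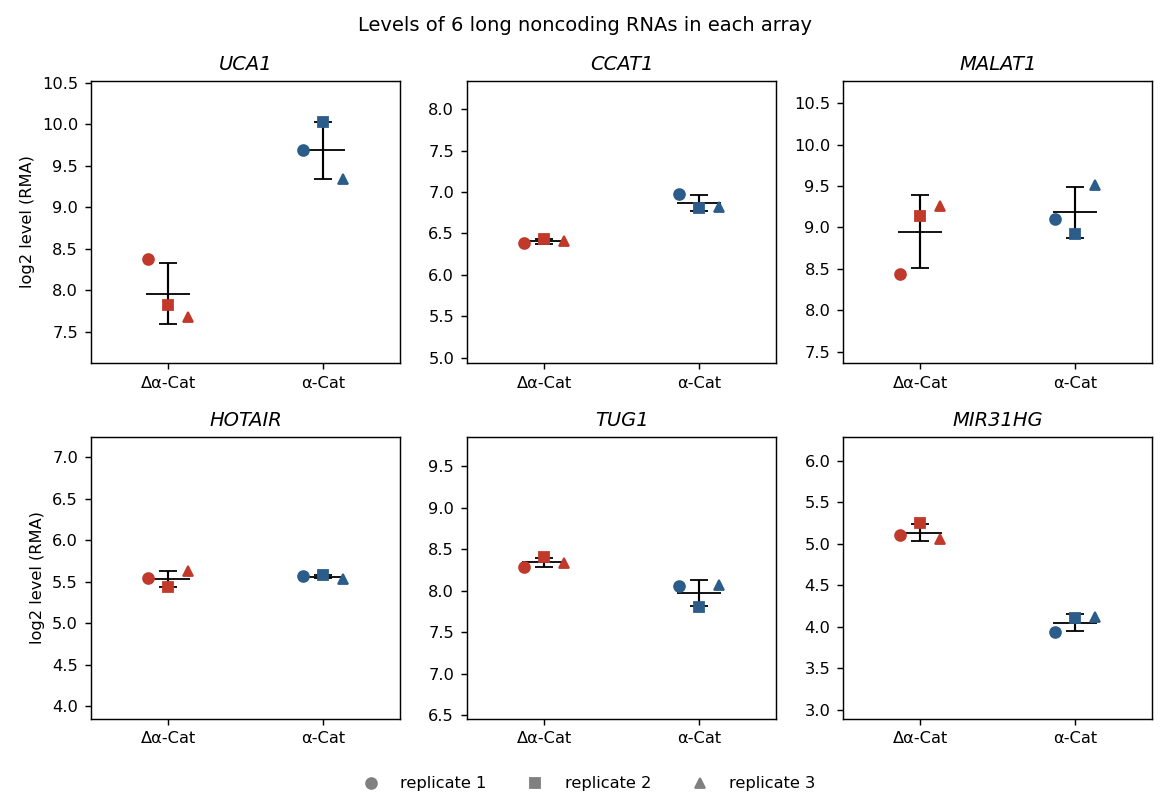
Log2 level (RMA, vertical axis, each panel spanning the same height) of 6 lncRNAs in the 3 Δα-Cat arrays (red, left) and the 3 α-Cat arrays (blue, right). Symbols give the replicate number, and bars the mean and SD. The groups stand apart for UCA1, CCAT1, TUG1 and MIR31HG, and overlap for MALAT1 and HOTAIR.

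The test across all rows was limma's moderated test, Δα-Cat minus α-Cat, with a call at an adjusted p under 0.05. It called 2 of the 6, UCA1 lower and MIR31HG higher, where 0.342% of all 65526 rows were called. The groups did not overlap for 4 of the 6, where that held for 15.4% of all rows. Nothing is read from either count, since the contrast was known when the RNAs were chosen. CCAT1 was just outside the threshold (adjusted p = 0.0505). It was called by 3 alternatives: trended, robust eBayes, single-symbol rows only, and rows with a mean of at least 5 only. The fits on single-symbol rows and on rows with that mean test fewer rows. CCAT1 was not called with the replicate block (adjusted p = 0.1), median centring (0.0775) or cyclic loess (0.0571). Without any single array its adjusted p lay between 0.125 and 0.187. MIR31HG was called without each array in turn, with a difference between 1.03 and 1.13. UCA1 kept its call without Δα-Cat replicate 1 and lost it without any other single array, with differences of -1.66 without Δα-Cat replicate 2, -1.59 without Δα-Cat replicate 3, -1.73 without α-Cat replicate 1, -1.55 without α-Cat replicate 2 and -1.90 without α-Cat replicate 3.

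To place these differences, the 3 nearest protein-coding genes on each side of all 10 named RNAs were taken from the RefSeq gene order. Of 50 such genes, 41 had a usable row, 1 rose, 0 fell and 40 did not pass, where 0.342% of all rows were called. In limma's test 9 of the 41 had an unadjusted p under 0.05. That held for 9.83% of all rows and for 2563 of 17023 protein-coding genes. For 15 of the 41 the groups did not overlap, where that held for 15.4% of all rows and 4155 of the 17023 protein-coding genes. The median difference of the 41 was -0.018, against 0.0011 over all rows. The call was CYP4F11, a fatty acid and drug hydroxylase, which is the third coding gene after UCA1. It read 5.31, 5.54 and 5.59 in Δα-Cat arrays, against 4.88, 4.75 and 4.90 in α-Cat arrays. It was therefore higher in all 3 Δα-Cat arrays, while UCA1 was lower in all 3. The difference was 0.63 (SE 0.09, adjusted p = 0.0495, or 0.0796 once the replicate number was a block). Without any array other than Δα-Cat replicate 1 the call was lost, with adjusted p between 0.151 and 0.206, and without Δα-Cat replicate 1 it was 0.0385.

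The other genes around UCA1 did not pass. CYP4F2, a related hydroxylase between UCA1 and CYP4F11, had a difference of 0.21 (SE 0.06, adjusted p = 0.332). OR10H1, the olfactory receptor gene on the other side, had one of -0.02 (SE 0.06), whose sign turned without Δα-Cat replicate 2 (0.008) and without α-Cat replicate 3 (0.016). Beside MIR31HG, IFNE, an epithelial interferon, had a difference of 0.13 (SE 0.08) at levels below the olfactory receptor percentile, which became 0.069 without α-Cat replicate 1 and 0.072 without Δα-Cat replicate 2. MTAP, an enzyme of methionine salvage on the other side, had a difference of -0.09 (SE 0.08, adjusted p = 0.819), which became -0.025 without α-Cat replicate 1 and -0.16 without α-Cat replicate 2. MRPL23, a mitochondrial ribosomal protein gene next to H19, had one of -0.12 (SE 0.06, adjusted p = 0.567).

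MYC, the transcription factor gene that neighbours CCAT1 and PVT1, lay lower in Δα-Cat. It read 8.0, 7.88 and 7.87 in Δα-Cat arrays, against 8.35, 8.37 and 8.23 in α-Cat arrays. The groups did not overlap, with a difference of -0.40 (SE 0.07), but MYC did not pass the test (adjusted p = 0.0805). It was called when only single-symbol rows were tested (adjusted p = 0.0206) and when only rows with a mean of at least 5 were (adjusted p = 0.0313). Both of these fits test fewer rows. MYC was not called with the replicate block (adjusted p = 0.11), trended, robust eBayes (0.069), cyclic loess (0.0815) or median centring (0.0816). Without any single array its adjusted p lay between 0.106 and 0.293. POU5F1B, a coding retrogene between CCAT1 and MYC, had a difference of -0.08 (SE 0.09), LRATD2, on the far side of CCAT1, one of 0.10 (SE 0.07), and GSDMC, a gasdermin gene beyond PVT1, one of 0.01 (SE 0.05). These 3 were named after their values were seen. Both group means of POU5F1B and of GSDMC lay below the olfactory receptor percentile, so neither gene was shown to exceed background. Without Δα-Cat replicate 1 the value of GSDMC was -0.02 and that of POU5F1B -0.025, and without α-Cat replicate 3 that of POU5F1B was -0.009. That of LRATD2 was 0.16 without Δα-Cat replicate 2.

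**Figure D2:**
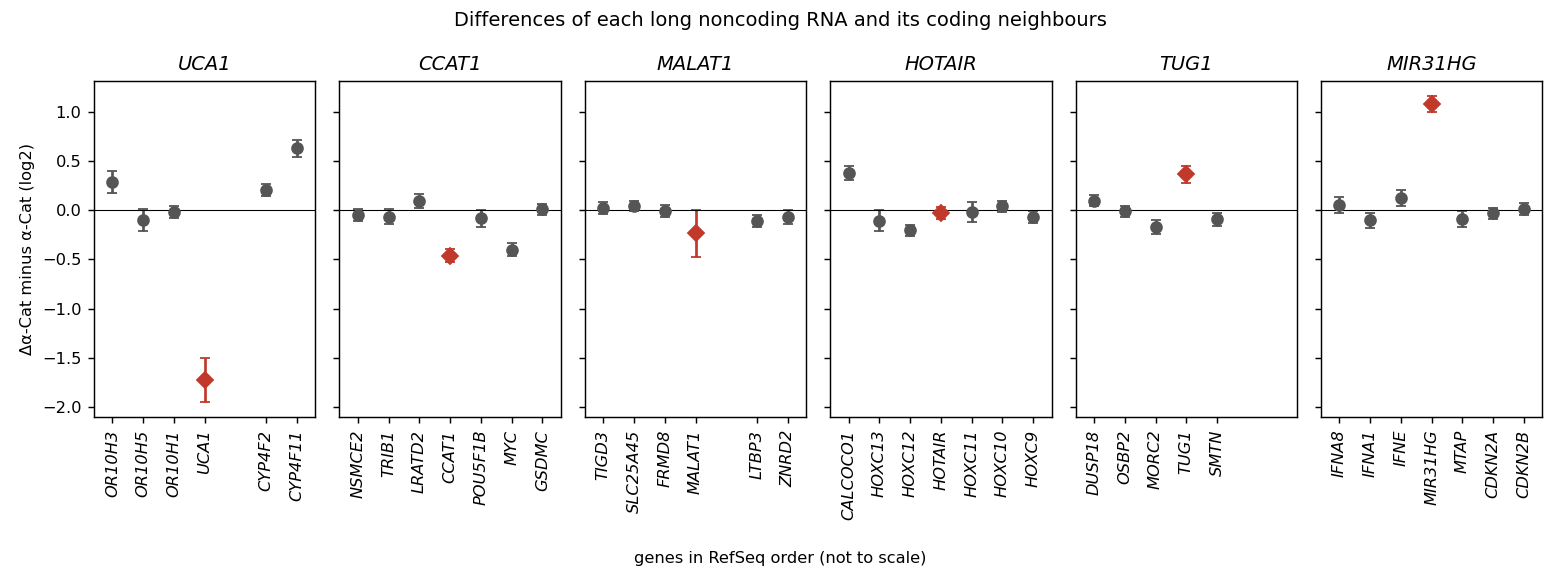
Difference Δα-Cat minus α-Cat (log2, vertical axis) of each of 6 lncRNAs (red diamonds) and of the coding genes next to it in RefSeq order (grey circles; horizontal axis, not to scale); bars are the SE. UCA1 lies at -1.73 and CYP4F11 at 0.63, while CCAT1 lies at -0.46 and MYC at -0.40. No neighbour of MIR31HG lies near its 1.09, but both group means of IFNE, IFNA1 and IFNA8 were below the olfactory receptor percentile.

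Of 20 small RNAs listed beside the named transcripts, not all of which lie within them, 9 had a usable row. None passed, where 0.342% of all rows were called. An unadjusted p under 0.05 was found for 1 of the 9, close to the 9.83% of all rows that had one. For 6 of the 9 both group means lay below the olfactory receptor percentile. The row of MIR31, whose hairpin is printed above, read 3.14, 3.01 and 2.98 in Δα-Cat arrays and 3.09, 2.91 and 3.26 in α-Cat arrays. The groups overlapped, all values lay below the olfactory receptor percentile, and the difference was -0.04 (SE 0.10, adjusted p = 0.952), against 1.09 for its host MIR31HG. Without α-Cat replicate 3 the sign turned, to 0.044. An array row of this kind does not measure the mature microRNA separately from its precursor. MIR1208, a microRNA gene of the PVT1 locus, had a difference of -0.20 (SE 0.08, adjusted p = 0.501), or -0.12 without Δα-Cat replicate 1. SNORD78, a small nucleolar RNA of an intron of GAS5, averaged 7.97 ± 0.74 in Δα-Cat and 7.19 ± 0.58 in α-Cat (SD, n = 3 each) with overlapping groups (adjusted p = 0.619). That difference of 0.78 became 0.40 without Δα-Cat replicate 2, and 1.14 without Δα-Cat replicate 1.

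Other lncRNAs linked to cancer gave no call. Of 100 listed, 59 had a usable row, and 0 passed in either direction in limma's test. Calls were made for 0.342% of all rows and 0.218% of genes that RefSeq types as lncRNA. The groups did not overlap for 13 of the 59, where that held for 15.4% of all rows and 12.8% of lncRNA genes. At an unadjusted p under 0.05 there were 10 of the 59, where 9.83% of all rows and 6.71% of all genes that RefSeq types as lncRNA lay under it. RefSeq gives another type to TERC and FER1L4, which are among the 10, and to TMEM238L, RMRP and RPPH1, which are not. The difference was positive in 27 and negative in 32, with a median of -0.015. In 27 of the 59 both group means lay below the olfactory receptor percentile. LINC00460, an intergenic RNA, read 4.27, 4.28 and 4.12 in Δα-Cat arrays, against 4.56, 4.71 and 4.80 in α-Cat arrays. That is a difference of -0.47 (SE 0.08, adjusted p = 0.0894) between groups that did not overlap. The Δα-Cat mean of LINC00460, 4.22, lay below the olfactory receptor percentile, so on that side the level was not shown to exceed background. Its α-Cat mean, 4.69, lay above that percentile, which does not by itself show expression. MIR100HG, host of miR-100 and let-7a-2, averaged 3.85 in Δα-Cat and 3.55 in α-Cat, both below that percentile (adjusted p = 0.137).

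TERC and UPK1A-AS1 were singled out after their values were seen. TERC, the RNA template of telomerase, had 9.11, 8.87 and 9.05 in Δα-Cat arrays, against 9.85, 10.28 and 9.46 in α-Cat arrays. The groups did not overlap, but the spread within α-Cat was wide, and the difference of -0.85 (SE 0.19) did not pass (adjusted p = 0.172). UPK1A-AS1, an antisense transcript at a uroplakin gene, had a difference of 0.57 (SE 0.13, adjusted p = 0.162), and passed only with the replicate block (adjusted p = 0.0483) among the settings tried.

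GAS5 belongs to the host genes of small nucleolar RNAs, which are spliced to release them and are then mostly degraded. Of 32 other host genes listed, 5 had a usable row, of which 1 rose, 0 fell and 4 did not pass, where 0.342% of all rows were called. In limma's test 2 of the 5 had an unadjusted p under 0.05, where 9.83% of all rows had one. For 2 of the 5 the groups did not overlap, where that held for 15.4% of all rows. DANCR is also in the list of cancer lncRNAs. EPB41L4A-AS1 read 7.38, 7.50 and 7.53 in Δα-Cat arrays, against 7.01, 6.93 and 7.05 in α-Cat arrays. All 3 Δα-Cat arrays were higher, with a difference of 0.48 (SE 0.06, adjusted p = 0.0474). The call was lost with the replicate block (adjusted p = 0.0862), and without each single array in turn (adjusted p between 0.0674 and 0.198).

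Among proteins that bind or process such RNAs, a single gene passed the test. The list held paraspeckle and speckle proteins, the Polycomb complex PRC2, RNA surveillance factors and IGF2BP proteins. Of 43 listed, 33 were measured, 1 rose, 0 fell and 32 did not pass, where 0.342% of all rows were called. The median difference was -0.0094. In limma's test 8 of the 33 had an unadjusted p under 0.05. That held for 9.83% of all rows and for 2563 of 17023 protein-coding genes. For 11 of the 33 the groups did not overlap, where that held for 15.4% of all rows and 4155 of the 17023 protein-coding genes. The call was IGF2BP3, an RNA-binding protein of fetal tissues and tumours that stabilises bound RNAs. It had 5.64, 5.92 and 5.83 in Δα-Cat arrays, against 4.91, 4.88 and 4.84 in α-Cat arrays. The groups were far apart for their spread, with a 1.89-fold higher level in Δα-Cat and a difference of 0.92 (SE 0.08, adjusted p = 0.0112). The call held without Δα-Cat replicate 1 (adjusted p = 0.0161) and was lost without any other single array, with adjusted p between 0.0522 and 0.0788.

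**Figure D3:**
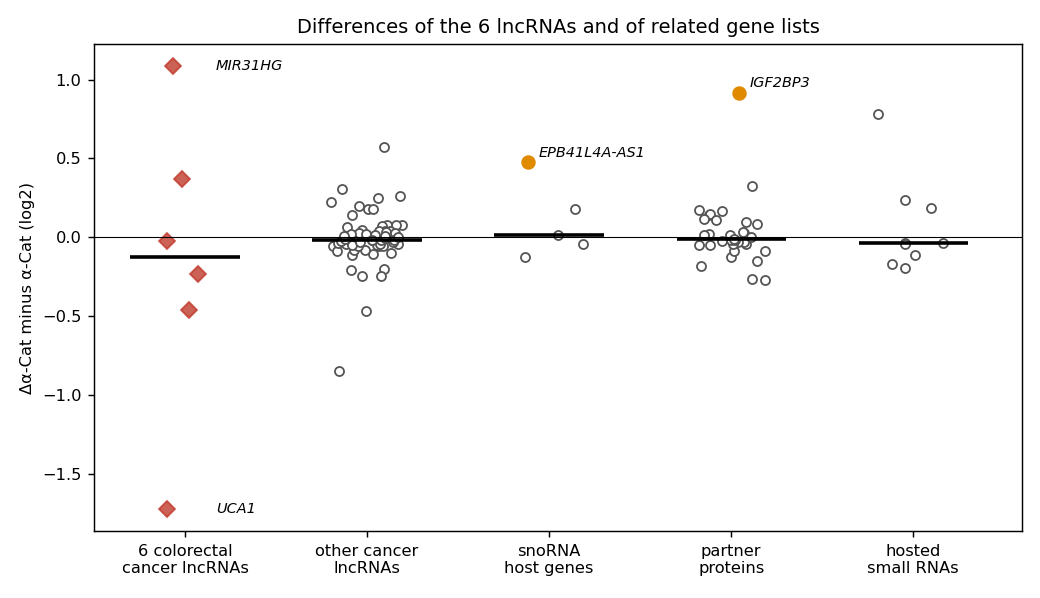
Difference Δα-Cat minus α-Cat (log2, vertical axis) of 6 lncRNAs (red diamonds) and of the measured genes of 4 related lists (circles; orange where limma's adjusted p was under 0.05); black bars are medians, and sideways scatter carries no value. UCA1 lies below and MIR31HG above every circle, EPB41L4A-AS1 and IGF2BP3 are the orange points, and the medians of the 4 lists lie near 0. The 6 lncRNAs were chosen with these differences known, so nothing is read from their place.

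Over all genes that RefSeq types as lncRNA, 4 of 1834 were called, which is 0.218%, and the groups did not overlap in 12.8%. Besides UCA1, MIR31HG and EPB41L4A-AS1 this was RBM12B-AS1, a transcript antisense to an RNA-binding protein gene, named after its values were seen. It read 4.86, 4.88 and 4.84 in Δα-Cat arrays, against 5.47, 5.27 and 5.30 in α-Cat arrays. It fell by 0.49 on the log2 scale (SE 0.07, adjusted p = 0.0496, or 0.0882 once the replicate number was a block), and without any single array the adjusted p lay between 0.12 and 0.191.

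The genes whose levels ran most like those of UCA1 over the 6 arrays were sought by Pearson's r among 12990 genes with a mean log2 level of at least 5. The 3 highest were WDR54, a WD-repeat protein (r = 0.996), MYC (r = 0.996) and MRPL22, a mitochondrial ribosomal protein (r = 0.996), none of which passed the test between the groups. The 3 lowest were BRPF3, a chromatin reader (r = -0.999), CDK6, a cell cycle kinase (r = -0.998), and JMY, an actin nucleator (r = -0.996). These are descriptions over 2 groups of 3 arrays, so a gene that separates the groups tends to score high: 138 genes had r over 0.95 and 196 had r under -0.95. In all 6 named genes, as in UCA1, Δα-Cat replicate 1 lay closest to the α-Cat arrays, which is what selecting on r favours.

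CDK6 was the only gene among these 6 to pass. It read 6.31, 6.51 and 6.56 in Δα-Cat arrays, against 5.76, 5.62 and 5.84 in α-Cat arrays. The difference was 0.72 (SE 0.09, adjusted p = 0.0393, or 0.0569 once the replicate number was a block). It passed without Δα-Cat replicate 1 (adjusted p = 0.0477), and without any other single array the adjusted p lay between 0.118 and 0.185. With median centring the call was lost as well (adjusted p = 0.0557).

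**Figure D4:**
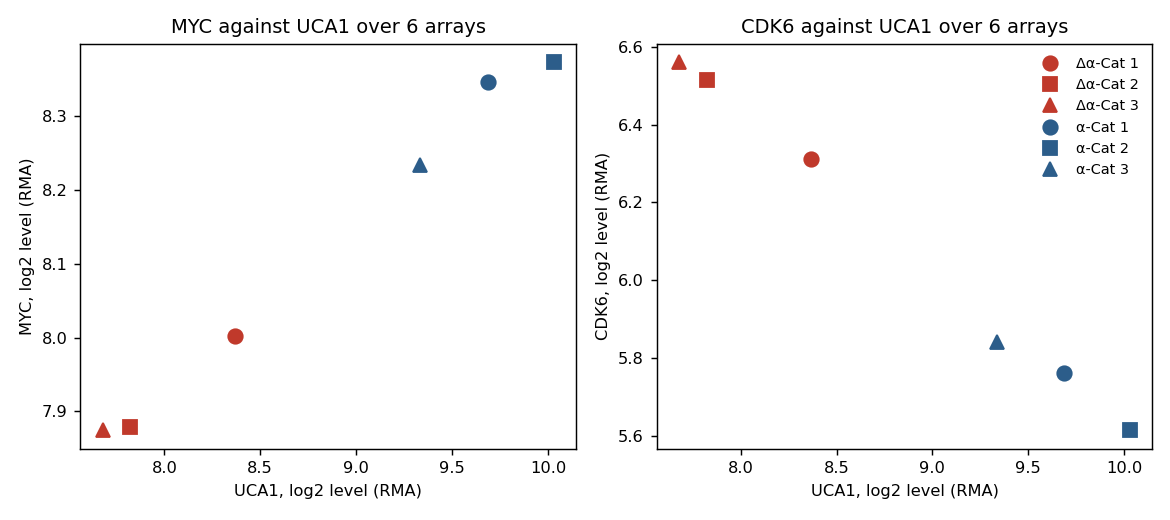
Log2 level (RMA) of MYC (left) and of CDK6 (right) on the vertical axes against UCA1 on the horizontal axes, 1 point per array, with Δα-Cat in red and α-Cat in blue and the symbol giving the replicate number. MYC is high where UCA1 is high and CDK6 low where UCA1 is high, and within each group the 3 arrays keep that order.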

How the data were processed

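Total RNA was hybridised to Affymetrix arrays, and the deposited table of scores was made with Affymetrix Expression Console and RMA, per the submitters' processing notes; for versions, build and settings, the sources used here give nothing. The authors' values were read as log2 because RMA gives log2 and the rows kept lie between 1.26 and 14.24. Of 70513 rows, 4987 held a value without a decimal point (up to 999) and were left out; none of them was a single-symbol row of the 10 RNAs. A second deposited table was not used, since its 6 columns match no sample label. Symbols came from the platform annotation, updated through RefSeq (GRCh38.p14): 22686 rows had 1 symbol, 1385 several and 41455 none. A gene was represented by its single-symbol row with the highest mean; each of the 6 RNAs has 1 such row, so no other row could be tried for them.

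Differences were fitted with limma 3.58.1 in R 4.3.3 (lmFit, eBayes, no covariate) over all 65526 rows and 6 arrays, with Benjamini-Hochberg adjustment over all rows; the fit was tested on simulated data. After subtracting group means, same-numbered arrays of the 2 groups correlated at 0.219, 0.214 and 0.128, all above 0.1, so the fit with the replicate number as a block stands beside results whose call it changes; the labels do not say what the number stands for. Python 3.11.15, pandas 2.3.3 and matplotlib 3.10.9 made tables and plots.

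The RNAs and the gene lists were chosen with earlier results of these data known. By rule the text names CTNNA1, all 10 RNAs, up to 4 called genes of each list or else the 2 with the smallest p, the nearest measured coding genes of UCA1, MIR31HG and H19, MYC, and the 3 genes with the highest and lowest r with UCA1. Exceptions are stated where they occur.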

Additional observations from a re-analysis of the deposited data

Results flagged for a closer look

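The row annotated with both H19, an imprinted fetal RNA, and MIR675, the microRNA within it, was set aside because it carries several symbols, and its value is assigned to neither gene. It was picked out because it stood above the α-Cat level in rows the comparisons did not use. It read 9.76, 9.94 and 10.06 in Δα-Cat arrays, against 8.41, 8.44 and 8.55 in α-Cat arrays. The difference was 1.45 on the log2 scale (SE 0.09, limma adjusted p = 0.00251, and 0.00691 with the replicate block), or 2.74-fold, with all 3 Δα-Cat arrays higher. The neighbouring row annotated with INS, IGF2 and INS-IGF2 averaged 6.09 in Δα-Cat and 6.01 in α-Cat (adjusted p = 0.766).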

How the results depend on the processing

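Of the 6 RNAs 2 were called, and 2 or 3 under the alternatives that kept all arrays, the replicate block among them (2); MIR31HG is not tested among rows with a mean of at least 5. Without 1 array the count was 1 to 2. All 65526 rows gave 224 calls, 156 with the replicate block, 662 when only single-symbol rows were tested and 510 when only rows with a mean of at least 5 were (both test fewer rows), and 29 to 120 without 1 array. Among other cancer lncRNAs the replicate block gave 1 call and single-symbol rows alone gave 2 (LINC00460 and MIR100HG). Host genes of small nucleolar RNAs had 0 calls with the replicate block, cyclic loess or median centring, and 0 without any 1 array. Neighbours had 0 calls with the replicate block, cyclic loess or median centring, 4 with single-symbol rows, 3 with rows of a mean of at least 5, and 0 to 1 without 1 array. Partner proteins had 0 to 1 without 1 array, and the listed small RNAs 0 under all alternatives. The sign turned for 5 of the 33 genes named and refitted, in each case without 1 array and with no call in any fit. Over those 6 fits MALAT1 ranged from -0.39 to 0.022, HOTAIR from -0.074 to 0.023, OR10H1 from -0.052 to 0.016, MIR31 from -0.13 to 0.044 and GSDMC from -0.02 to 0.028. Without a change of sign, 6 more uncalled differences moved by over 1.5 times: IFNE (0.069 to 0.16), MTAP (-0.16 to -0.025), SNORD78 (0.40 to 1.14), MIR1208 (-0.24 to -0.12), POU5F1B (-0.13 to -0.009) and LRATD2 (0.066 to 0.16). The cause of these changes was not tested. With 3 arrays a group, their number limits the precision. Averaging the rows of a gene, or taking its dimmest row, was not run for the 6 RNAs, since each has a single row.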

Other observations

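The other named RNAs without a row of their own appear in rows with several symbols, whose values are likewise assigned to no gene. The row annotated with NEAT1 and MIR612 averaged 6.46 ± 0.15 in Δα-Cat and 6.71 ± 0.03 in α-Cat (SD, n = 3 each); its groups did not overlap, and it did not pass (limma adjusted p = 0.366). The row annotated with PVT1 and MIR1204 averaged 4.73 in Δα-Cat and 4.77 in α-Cat (adjusted p = 0.899). The row annotated with GAS5 and 8 small nucleolar RNAs read 6.23, 6.43 and 6.72 in Δα-Cat arrays, against 6.21, 6.09 and 6.14 in α-Cat arrays (adjusted p = 0.466), so its groups were separated by only 0.020.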
